A study of Mus musculus with 45 samples.

Results

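The 78 genes described here carry symbols of proteins of the mitochondrial ribosome: 49 of its large subunit (Mrpl) and 29 of its small subunit (Mrps). They are all protein-coding genes of the expression table whose symbol is Mrpl or Mrps followed by a number, out of 15897 genes, 14204 of them protein-coding. Levels were measured by poly(A) RNA-seq in the hippocampus of 45 female C57Bl/6J mice. AwTw mice were wild-type, A+Tw mice carried APPswe/PS1dE9 driven by the mouse prion protein promoter, AwT+ mice carried human Tau P301L driven by the CaMKII promoter, and A+T+ mice, from a cross of these lines, carried both. Mice of each genotype ate standard chow (STD, 5% fat, 0% cholesterol) or a typical Western diet (TWD, 21% fat, 0.15% cholesterol, 35% sucrose) from 7 months of age until they were killed at 13 months. There were 6 AwTw, 6 AwT+, 5 A+Tw and 4 A+T+ mice on STD, and 6 mice of each genotype on TWD. The labels also give 2 batches without saying what a batch is, with 8 STD and 12 TWD mice in batch 0 and 13 STD and 12 TWD mice in batch 1.

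Mitochondria keep a ribosome of their own, which makes the few proteins that mitochondrial DNA encodes, all core parts of the respiratory chain or of ATP synthase. Its RNAs come from mitochondrial DNA, while its proteins are encoded in the nucleus, made in the cytosol and imported, so the particle depends on both genomes. Some of these proteins have relatives in bacterial ribosomes and others arose in mitochondria. Inherited defects in several of them impair respiration, on which neurons depend strongly.

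The values were variance-stabilized, log2-like and cleared of batch by the authors, and hold no counts. The study's methods state a minimum depth but the table gives none per mouse, so precision rests on the spread between mice. Markers bore out the tissue: Camk2a and Slc17a7 of excitatory neurons averaged 15.85 and 14.58, and Prox1 of dentate granule cells 9.76. The mean level of 8 choroid plexus markers differed widely between mice, from 5.74 to 10.52. AM245 (A+T+/TWD) and PM265 (AwTw/TWD) stood apart, with a median correlation with the other mice of 0.941 and 0.944, against 0.95 or more in every other mouse. In homogenized tissue, fewer cells of a type and less RNA per cell cannot be told apart.

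The members lay on 17 chromosomes, with 11 on chromosome 11 and 8 on chromosome 17. Their transcripts were short, with a median length of 1073 bases (398 to 3561) against 1825.5 for all genes, each gene's transcripts being averaged. Head-to-head neighbours were common: in 33 of 78 members (42.3%) another protein-coding gene started on the opposite strand within 1000 bases, against 14.7% of the protein-coding genes of the table. Mrps11 and Mrpl46 on chromosome 7 are such neighbours of each other. Mrpl49 starts 59 bases from Fau, a gene of the cytosolic ribosome, and Mrpl36 starts beside Ndufs6, a gene of respiratory complex I. Another protein-coding gene of the table overlapped 23 members, 4 of them on the same strand (Mrpl53, Mrps24, Mrps34 and Mrps6), and reads of such genes may be shared. The values of Mrps10 and Mrps23 are each repeated under another gene identifier of the table.

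RefSeq promoter windows (GRCm38.p6), from 250 bases before to 50 after the start, matched 69 members by symbol, and motifs were searched on both strands. CCGGAAG, the core bound by ETS factors such as GABP, was in 26 of the 69 (37.7%), against 18.2% of protein-coding genes of the table and 8.86% of all windows. AAGATGGC, the YY1 motif, was in 12 (17.4%), against 4.84% and 2.75%. GCGCANGCG, the NRF1 motif, was in 16 (23.2%), against 14.3% and 6.25%. ETS factors and NRF1 are known regulators of nuclear genes for mitochondrial proteins. GGGCGG, bound by Sp factors, was in 49.3% of members against 67.8% and 35.7%, CCAAT in 39.1% against 42.5% and 37.4%, and TATAAA in 7.25% against 8.77% and 13.6%. CCGGAAG ends in the letters with which AAGATGGC begins, so a single stretch can hold both. A match describes letters and is no proof of binding.

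The 180 bases from 150 before to 30 after the start are shown for 5 members, with ETS, YY1 and NRF1 matches in capitals. Mrps18a, Mrps21, Mrps12 and Mrpl28 are among the members with the strongest diet results, and Mrps11 lies head to head with Mrpl46.
Mrps18a: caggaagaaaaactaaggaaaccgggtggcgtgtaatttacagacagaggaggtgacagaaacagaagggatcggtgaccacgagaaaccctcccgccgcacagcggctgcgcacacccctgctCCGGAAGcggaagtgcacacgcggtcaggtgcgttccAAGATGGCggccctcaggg
Mrps21: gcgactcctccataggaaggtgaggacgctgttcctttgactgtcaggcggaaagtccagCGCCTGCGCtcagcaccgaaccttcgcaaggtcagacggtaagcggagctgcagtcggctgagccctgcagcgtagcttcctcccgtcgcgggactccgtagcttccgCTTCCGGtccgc
Mrps12: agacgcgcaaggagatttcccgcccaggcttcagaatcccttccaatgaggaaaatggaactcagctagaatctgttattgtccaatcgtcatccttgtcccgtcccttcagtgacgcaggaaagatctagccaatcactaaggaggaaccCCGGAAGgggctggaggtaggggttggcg
Mrps11: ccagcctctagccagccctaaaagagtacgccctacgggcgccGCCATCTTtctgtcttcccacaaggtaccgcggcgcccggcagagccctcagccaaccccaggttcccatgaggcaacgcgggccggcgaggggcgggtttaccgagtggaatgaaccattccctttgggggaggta
Mrpl28: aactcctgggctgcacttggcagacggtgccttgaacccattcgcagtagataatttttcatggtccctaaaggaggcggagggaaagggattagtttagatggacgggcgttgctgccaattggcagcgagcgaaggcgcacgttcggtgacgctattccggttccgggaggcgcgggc
Mrps18a, at chr17:46110854-46111033 (plus strand), holds an ETS match followed by a YY1 match. Mrps21, at chr3:95871485-95871664 (minus strand), holds NRF1 and ETS matches that read on the other strand. Mrps12, at chr7:28741792-28741971 (minus strand), holds an ETS match at the start itself. Mrps11, at chr7:78782981-78783160 (plus strand), holds a YY1 match on the other strand, and the window of Mrpl28, at chr17:26123353-26123532 (plus strand), holds none of the 3 motifs. Among members with a window, an ETS match was found in 16 of the 41 that were higher on TWD and in 10 of the other 28.

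All members were well expressed. Their mean levels ran from 7.41 (Mrpl1) to 10.24 (Mrpl12), with a median of 8.89 against 8.21 for all genes, and 35.5% of all genes lay below the lowest member. To rank genes, the log2 of the transcript length in kilobases was subtracted. On this scale the highest levels were those of Mrps21 (10.65), a small-subunit protein with a bacterial relative, and of the large-subunit proteins Mrpl41 (10.49) and Mrpl20 (10.38). Their SDs between mice, 0.38, 0.33 and 0.27, exceeded the steps between them. The lowest were Mrpl1 (5.90), of the stalk beside the exit site of tRNA, Mrps30 (6.36), which sits in the large subunit despite its symbol, and Mrpl47 (6.77). With the longest transcript in place of the mean length, the same 3 were highest, while Mrps10 was lowest (5.44), followed by Mrpl1 (5.58) and Mrpl47 (5.87), and Mrps30 stood at 6.26.

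Diet was compared first over the 4 genotypes together, to ask what TWD changed irrespective of genotype. On TWD, 47 of 78 members were higher and 0 lower, against 16% of all genes higher and 13.4% lower (limma with genotype and batch, two-sided, adjusted p below 0.05 over all genes). The differences were small. Their median was 0.20 on the log2 scale, or 1.15-fold, against 0.00 for all genes, and 69 of the 78 values were above 0. The called members ran from 0.11 (1.08-fold, Mrps2) to 0.49 (1.40-fold, Mrpl23). Of the 31 others, 22 had values above 0 and 9 below. The calls were lost without the mice that stood apart: with neither AM245 nor PM265, 0 members were called, as were 0 genes higher and 1 lower in the whole table. The lowest adjusted p of a member was then 0.0555, the median was 0.16, and 53 members had an unadjusted p below 0.05 by limma, where 33.1% of all genes did, against 56 members and 44.1% of all genes with all mice. With a nuisance score as a covariate, taken from the first principal component of the residuals, 0 members and 0 genes were called as well. The median then was 0.06, with 74 values above 0, and 10 members had an unadjusted p below 0.05, against 8.06% of all genes. Since the median fell from 0.20, the score was not independent of diet. Whether the part it took up was diet or nuisance was not tested.

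**Figure D1:**
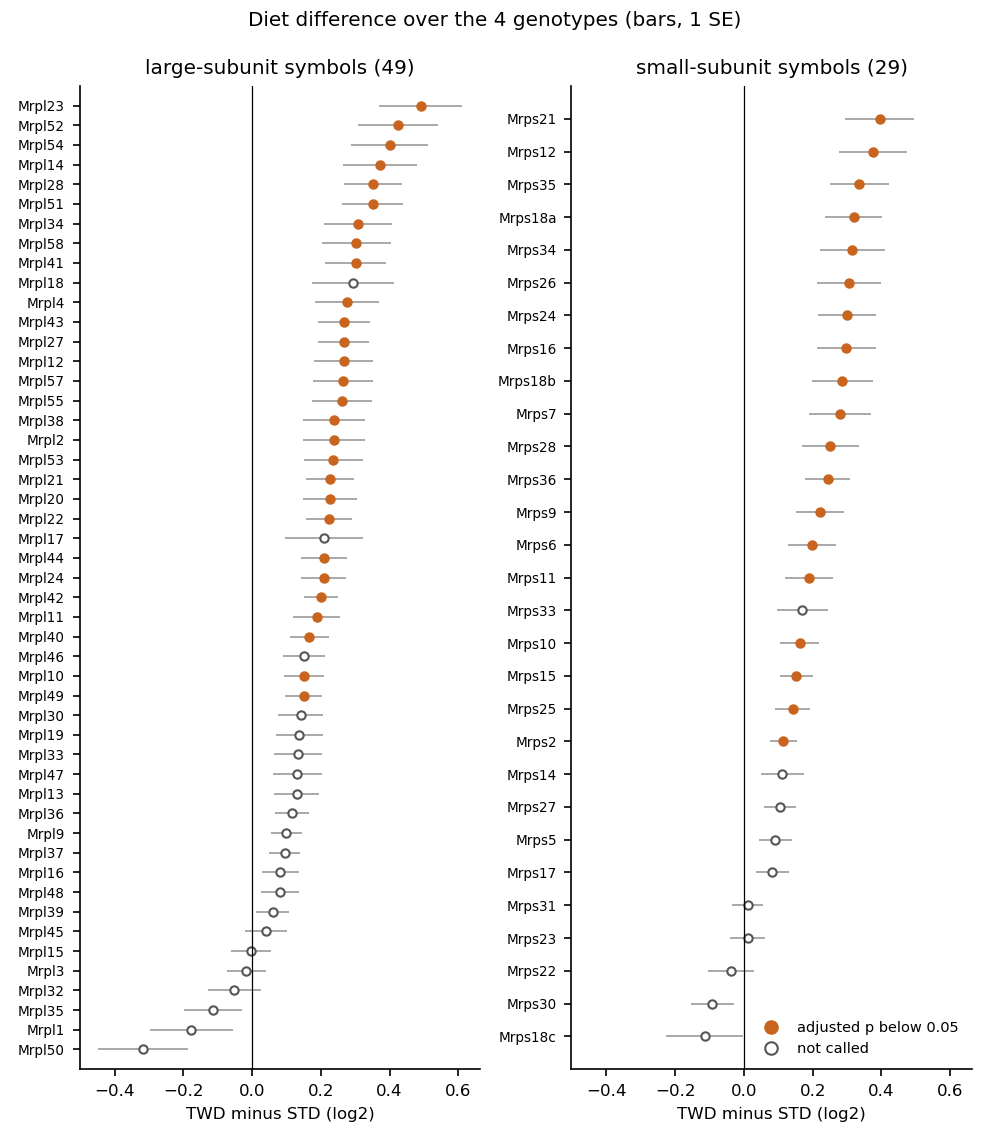
Difference between TWD and STD over the 4 genotypes (log2, bars give 1 SE from limma, 21 STD and 24 TWD mice) for each of the 78 genes, by subunit symbol and in order of size. Filled points passed an adjusted p of 0.05, and all 47 of them lie above 0, from 0.11 for Mrps2 to 0.49 for Mrpl23.

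The strongest results came from both subunits. Mrpl28, a large-subunit protein with a bacterial relative, ran from 8.87 to 9.85 (median 9.14) on STD and from 8.96 to 10.13 (median 9.54) on TWD, a difference of 0.35 ± 0.08 (SE; adjusted p = 0.0157). Mrpl23, at the mouth of the tunnel through which new chains leave, ran from 7.94 to 9.74 (median 8.76) on STD and from 8.75 to 9.92 (median 9.12) on TWD. It had the largest difference of the members, 0.49 ± 0.12 (adjusted p = 0.0157). A processed pseudogene of Mrpl23 is also in the table, so its reads may be split. Mrpl42, a large-subunit protein without a bacterial relative, varied less between mice, from 9.10 to 9.78 (median 9.35) on STD and from 9.36 to 9.82 (median 9.56) on TWD, and differed by 0.20 ± 0.05 (0.0157). Mrpl51, of the same class, ran from 8.80 to 9.80 (median 9.14) on STD and from 8.96 to 9.96 (median 9.45) on TWD, with a difference of 0.35 ± 0.09 (0.0157). The diets overlapped in all 4 genes, and the lowest mice were on STD.

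In the small subunit, Mrps12, which forms part of the decoding centre, ran from 8.69 to 9.98 (median 9.32) on STD and from 9.05 to 10.30 (median 9.71) on TWD, a difference of 0.38 ± 0.10 (adjusted p = 0.0157). Mrps21 ran from 8.64 to 9.89 (median 9.11) on STD and from 8.93 to 10.26 (median 9.49) on TWD, and differed by 0.39 ± 0.10 (0.0157). Mrps35, which has no bacterial relative, ran from 7.61 to 8.49 (median 8.21) on STD and from 7.87 to 8.96 (median 8.41) on TWD, and differed by 0.34 ± 0.09 (0.0157). These shifts moved the groups and did not separate single mice by diet, since the ranges overlapped. Mrps18a, a large-subunit protein despite its symbol, ran from 8.94 to 9.99 (median 9.37) on STD and from 9.16 to 10.22 (median 9.73) on TWD, with a difference of 0.32 ± 0.08 (0.0157).

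Members of each class were among the 47, where 16% of all genes were called higher; classes were not compared by a test, and no class had a call without AM245 and PM265 or with the nuisance score. Of the large-subunit proteins, 14 of 29 with bacterial relatives (median difference 0.19) and 12 of 18 without (0.20) were higher. Of the small-subunit proteins, 11 of 15 with bacterial relatives (0.19) and 4 of 9 without (0.14) were higher. Of 7 members with another place or origin, 6 were higher (0.26), and the exception was Mrps30 (-0.09 ± 0.06, adjusted p = 0.249).

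Roles split in the same way. In the stalk that recruits translation factors, each gene named here was called higher over genotypes, as were 16% of all genes. Mrpl12 differed by 0.27 ± 0.09 (limma, adjusted p = 0.0228), Mrpl10, its base, by 0.15 ± 0.06 (0.0439) and Mrpl11, beside it, by 0.19 ± 0.07 (0.0369). Within AwT+, A+Tw or A+T+ mice none of these genes was called. Mrpl58, a peptidyl-tRNA hydrolase that frees chains from stalled ribosomes, was higher by 0.30 ± 0.10 (0.0249). Among genes known from inherited disease, Mrpl44 was higher by 0.21 ± 0.07 (0.0222) and Mrps16 by 0.30 ± 0.09 (0.0172). Mrpl3 (-0.02 ± 0.06, 0.833) and Mrps22 (-0.04 ± 0.07, 0.684) were not called, and Mrps22 changed sign after quantile normalization (0.0040). Mrps36, now regarded as a part of 2-oxoglutarate dehydrogenase, was higher by 0.24 ± 0.07 (0.0157), and a processed pseudogene of it is in the table too. The lowest value was that of Mrpl50 (-0.32 ± 0.13, 0.062), chosen here after its value was seen, which ran from 8.39 to 9.61 (median 8.99) on STD and from 7.41 to 9.50 (median 8.80) on TWD.

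The batches differed in size of effect. In batch 0 alone the median difference was 0.13 and 77 of 78 members were above 0, but 0 members and 0 genes were called. At an unadjusted p below 0.05, limma gave 4 members there, against 5.55% of all genes. In batch 1 alone the median was 0.26, with 45 members higher and 5 lower, against 20.3% and 20.6% of all genes, and 42 of the 47 were called there. The 5 lower in batch 1 were Mrpl1 (-0.45 ± 0.18), Mrpl35 (-0.32 ± 0.12), Mrpl50 (-0.67 ± 0.20), Mrps18c (-0.40 ± 0.13) and Mrps30 (-0.22 ± 0.09). In batch 0 the same genes had values of 0.08, 0.10, 0.05, 0.15 and 0.05. Mrpl23 differed by 0.18 in batch 0 and 0.79 in batch 1, Mrps12 by 0.22 and 0.53, and Mrpl42 by 0.18 and 0.24. Both mice that stood apart, AM245 and PM265, were TWD mice of batch 1. Batch 1 was not fitted without them, and the difference between batches was not tested.

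**Figure D2:**
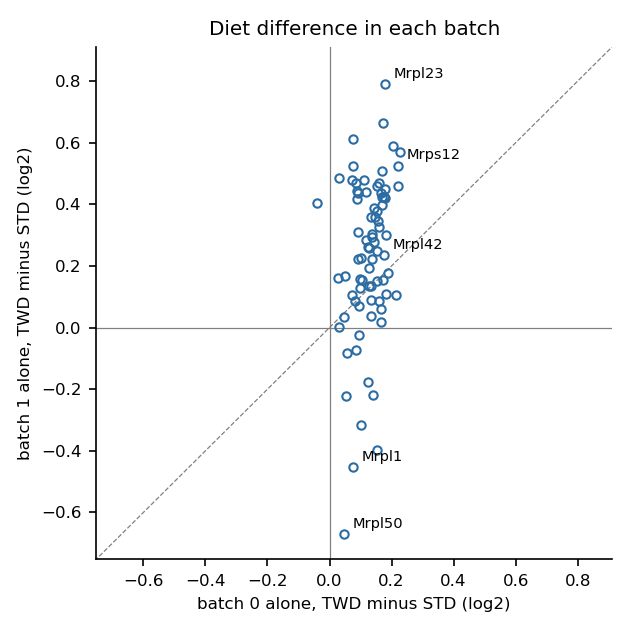
Diet difference (log2, TWD minus STD) of each of the 78 genes in batch 0 alone (x axis) and in batch 1 alone (y axis), with a dashed line where both are equal. In batch 0, 77 of the genes lie above 0, while 5 genes, Mrpl50 the lowest at -0.67, were called lower in batch 1.

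Transcript length moved with the diet difference. Of 24 members under 800 bases, 19 (79.2%) were higher on TWD, of 20 from 800 to 1200 bases 16 (80%), of 19 from 1200 to 1800 bases 8 (42.1%) and of 15 longer ones 4 (26.7%). All genes fell from each range to the next, at 42.1%, 31.4%, 17.6% and 6.32%, while the members were level up to 1200 bases. Over the 78 members, which share the same libraries, Spearman's rho of the difference was -0.51 with length and 0.73 with GC content, as a description. After a smooth trend over length and GC was removed from each mouse, 23 members were higher and 0 lower, 18 of them among the 47, against 9.9% of all genes higher, and the median was 0.12. Mrps35 (0.42), Mrpl23 (0.35), Mrpl51 (0.33), Mrpl42 (0.27), Mrps21 (0.21), Mrpl28 (0.16) and Mrps18a (0.15) were still called. The order by length then turned: from the shortest to the longest range, 4 of 24, 5 of 20, 6 of 19 and 8 of 15 members were higher, with medians of 0.09, 0.10, 0.11 and 0.21, and rho with length was 0.40. Mrps12 was just outside the threshold (0.15, adjusted p = 0.0509).

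**Figure D3:**
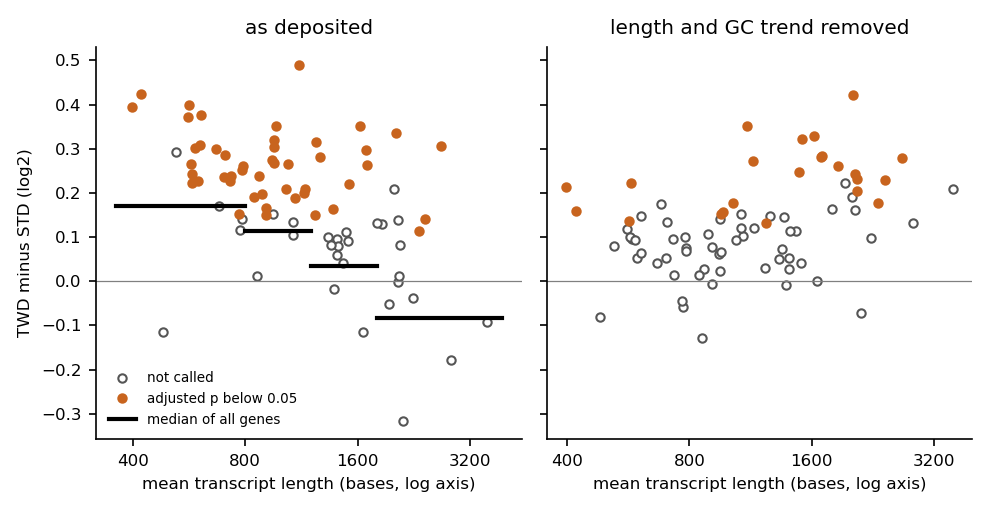
Diet difference over the 4 genotypes (log2) against transcript length (bases, log axis) for the 78 genes, before and after a trend over length and GC was removed from each mouse. Filled points passed an adjusted p of 0.05, 47 before and 23 after, and thick lines give the median of all genes in 4 ranges of length.

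The members moved as a body in single mice. The median deviation of the 78 genes from their means was taken per mouse, and it ran from -0.30 in PM275 (AwT+/STD) to 0.42 in PM271 (A+Tw/STD). It was above 0 in 3 of 21 STD mice and 16 of 24 TWD mice. The mean was -0.10 ± 0.18 (SD, n = 21) on STD and 0.10 ± 0.17 (n = 24) on TWD. The slope of all genes' deviations on log2 transcript length, negative where short transcripts are high, averaged 0.06 ± 0.10 on STD and -0.05 ± 0.11 on TWD. Its sign was opposite to that of the members' median in 19 of the 21 STD and 22 of the 24 TWD mice. The part of this slope in the diet result was not tested.

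**Figure D4:**
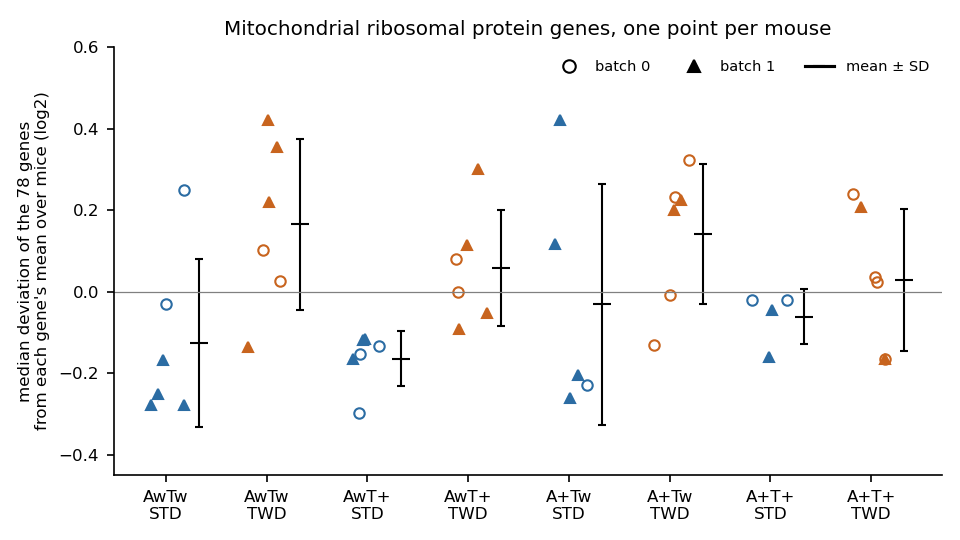
Median deviation of the 78 genes from their means over all mice (log2), with a point for each of the 45 mice by group (circles for batch 0, triangles for batch 1, blue for STD, orange for TWD), and bars for the mean and SD of each group. All AwT+/STD mice lie below 0, while PM271 of A+Tw/STD stands at 0.42.

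Within genotypes, AwTw mice had the largest median difference, 0.29, with 66 of 78 values above 0. In them, 14 members were higher on TWD and 0 lower, against 6.01% and 3.34% of all genes. All 14 had an adjusted p of 0.0498, at the edge of the threshold, and all were among the 47. The count was 0 without AM245 and PM265, 0 in batch 0 alone (2 mice on each diet, median -0.04) and 0 after quantile normalization. It was also 0 when any 1 of 32 of the 45 mice was left out.

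Mrps12 led these genes, running from 8.69 to 9.68 (median 9.14) in AwTw/STD mice and from 9.28 to 10.30 (median 9.94) in AwTw/TWD mice, a difference of 0.68 ± 0.19. Mrpl54, a large-subunit protein without a bacterial relative, ran from 7.67 to 8.54 (median 7.82) and from 7.86 to 9.36 (median 8.73), a difference of 0.69 ± 0.21. Mrps7, of the head of the small subunit, ran from 8.71 to 9.49 (median 8.97) and from 9.31 to 10.04 (median 9.53), a difference of 0.55 ± 0.17. The diets overlapped in each of them. The others of the 8 with the lowest p were Mrpl51 (0.57 ± 0.17), Mrps21 (0.64 ± 0.19), Mrpl12 (0.51 ± 0.16), Mrpl52 (0.71 ± 0.23) and Mrpl41 (0.52 ± 0.17), and their diets overlapped too.

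In AwT+ mice the median was 0.22 and 74 of 78 values were above 0. No member was called, as 0% of all genes were, and limma gave 16 members at an unadjusted p below 0.05, against 7.44% of all genes. Mrps36 ran from 8.22 to 8.44 (median 8.41) in the STD mice and from 8.60 to 8.99 (median 8.75) in the TWD mice, which did not overlap, and differed by 0.41 ± 0.13 (adjusted p = 0.646). Mrps27, a small-subunit protein with pentatricopeptide repeats, ran from 8.41 to 8.83 (median 8.62) and from 8.77 to 8.95 (median 8.91), with overlap, and differed by 0.28 ± 0.09 (0.646). Mrpl23 differed by 0.61 ± 0.23 (0.646).

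In A+Tw mice the median was 0.15, 67 values were above 0, and 0 members were called (0% of all genes). At an unadjusted p below 0.05, limma gave 4 members, against 4.43% of all genes. The lowest p were those of Mrpl51 (0.40 ± 0.18), Mrps9 (0.32 ± 0.15) and Mrps15 (0.21 ± 0.10), each with an adjusted p of 0.706. The 5 A+Tw/STD mice were uneven for Mrpl51, at 9.80 in PM271 and 9.59 in PM323 but 9.003, 8.96 and 8.81 in AM253, AM309 and AM303. The TWD mice ran from 9.13 to 9.90 (median 9.72), and PM271 and PM323 lay within that range.

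In A+T+ mice the median was 0.10, 64 values were above 0, and 0 members were called (0% of all genes). No member had an unadjusted p below 0.05 by limma, against 2.57% of all genes. The lowest p were those of Mrpl36 (0.22 ± 0.11), Mrpl42 (0.21 ± 0.11) and Mrpl21 (0.21 ± 0.15), with an adjusted p of 0.998. Mrpl42 stood at 9.38, 9.14, 9.34 and 9.32 in the 4 STD mice and ran from 9.36 to 9.82 (median 9.46) in the TWD mice. In all 4 genotypes, 54 members had values above 0.

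**Figure D5:**
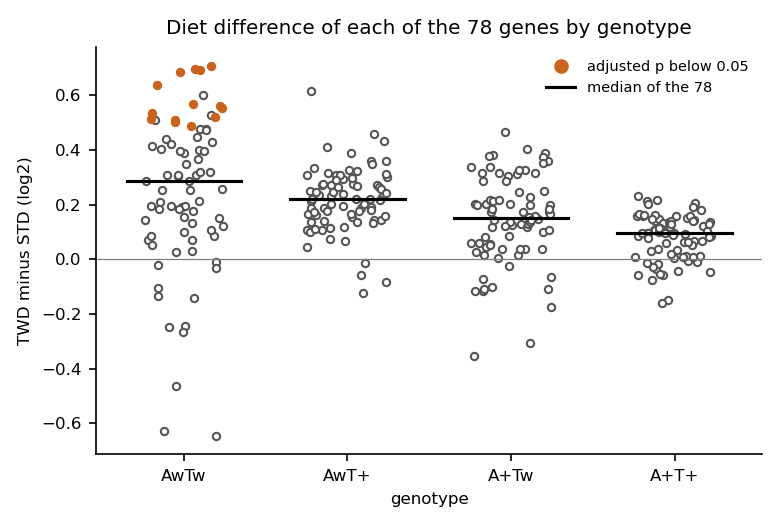
Diet difference (log2, TWD minus STD) of each of the 78 genes in the 4 genotypes, with a line at the median and filled points past an adjusted p of 0.05. The median fell from 0.29 for AwTw through 0.22 for AwT+ and 0.15 for A+Tw to 0.10 for A+T+, and only AwTw had genes past an adjusted p of 0.05, 14 of 78.

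Whether the diet difference of a transgenic genotype differed from that of AwTw was tested as an interaction. It called 0 members and 0% of all genes for AwT+, A+Tw and A+T+ alike, so the order of the medians was not borne out by a test. The interactions had medians of -0.07, -0.13 and -0.20 over the members, and limma gave 2, 0 and 2 members at an unadjusted p below 0.05, where 4.02%, 2.21% and 6.3% of all genes passed it. The lowest p were those of Mrps31 (0.27 ± 0.12), Mrps14 (0.35 ± 0.17) and Mrps30 (0.33 ± 0.17) for AwT+ (each with an adjusted p of 0.78). For A+Tw they were those of Mrpl1 (0.60 ± 0.33), Mrpl10 (-0.29 ± 0.16) and Mrpl12 (-0.39 ± 0.24), each at 0.919. For A+T+ they were those of Mrpl1 (0.78 ± 0.33), Mrps18c (0.65 ± 0.31) and Mrpl37 (-0.25 ± 0.13), each at 0.56. These comparisons share the AwTw mice.

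With batch as the only covariate, genotype called no member in any comparison. On STD, against AwTw, limma called 0 members in AwT+ (0% of all genes), A+Tw (0.925%) and A+T+ (1.32%), with 3, 0 and 3 at an unadjusted p below 0.05, against 2.39%, 5.66% and 14.3% of all genes. On TWD it called 0 in AwT+ (0%), A+Tw (0.824%) and A+T+ (0.73%), with 1, 0 and 3 at an unadjusted p below 0.05, against 3.04%, 5.2% and 7.76%. Over both diets, A+ against Aw (3.77%) and T+ against Tw (0.0189%) called 0 members, with 1 and 5 at an unadjusted p below 0.05, against 15.1% and 5.15%. With the nuisance score added, Mrpl12 was lower in A+T+ on TWD (-0.27 ± 0.07, adjusted p = 0.0395), where 0.642% of all genes were lower, and Mrpl4 (-0.12 ± 0.03, 0.0277) and Mrpl38 (-0.11 ± 0.04, 0.0471) were lower in A+ against Aw, where 2.73% were. The medians of the members were -0.04, 0.11 and 0.06 on STD and -0.07, -0.03 and -0.13 on TWD, each set against the same AwTw mice.

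The members nearest to a genotype call differed between comparisons. In AwT+ on STD they were Mrps27 (-0.25 ± 0.09), Mrpl15 (-0.26 ± 0.11) and Mrps31 (-0.19 ± 0.08). Mrps27 ran from 8.41 to 8.83 (median 8.62) in these mice and from 8.76 to 8.92 (median 8.86) in AwTw/STD mice, which overlapped (adjusted p = 0.999). In A+Tw on STD they were Mrps28 (0.32 ± 0.17), Mrpl1 (-0.44 ± 0.23) and Mrpl2 (0.31 ± 0.18). In A+T+ on STD they were Mrps30 (-0.33 ± 0.13), Mrpl1 (-0.63 ± 0.25) and Mrps18c (-0.51 ± 0.23), with adjusted p from 0.247 to 0.319. On TWD, AwT+ had Mrpl12 (-0.34 ± 0.16), Mrps14 (0.23 ± 0.12) and Mrps12 (-0.32 ± 0.19), A+Tw Mrps27 (-0.17 ± 0.09), Mrpl39 (-0.15 ± 0.09) and Mrps5 (-0.14 ± 0.09) and A+T+ Mrpl19 (-0.39 ± 0.13), Mrps5 (-0.20 ± 0.09) and Mrpl12 (-0.34 ± 0.16). Over diets, A+ against Aw had Mrps30 (-0.13 ± 0.06), Mrps28 (0.14 ± 0.08) and Mrpl33 (0.11 ± 0.07), and T+ against Tw had Mrpl46 (-0.16 ± 0.06), Mrps27 (-0.11 ± 0.05) and Mrpl48 (-0.13 ± 0.06). None of these passed the threshold.

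Members rose and fell together between mice of a group. After group and batch means were removed, the correlation of a member with the mean of the others had a median of 0.81 over 45 mice, and 61 of 78 (78.2%) were above 0.5, against 21.6% of all genes. This was not particular to the members: the median correlation was 0.91 for genes of the cytosolic ribosome and 0.86 for those of oxidative phosphorylation. The most correlated members were Mrpl20 (0.94), Mrpl11 (0.93) and Mrpl51 (0.92), and the least were Mrpl50 (-0.48), Mrpl1 (-0.47) and Mrpl35 (-0.14). The 7 members below 0 had a GC content of 40.8% to 47.1%, under the members' median of 51.2%. Other members within that range were well correlated, such as Mrpl42 (GC 45.6%, correlation 0.82) and Mrps36 (46.5%, 0.85), chosen after their values were seen. These points share libraries and the length slope given above.

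Other genes of mitochondrial translation were read in the same diet comparison over genotypes, in which 16% of all genes were higher and 13.4% lower. Of 5 mitoribosome proteins with other symbols, Dap3 (0.25 ± 0.07), a GTP-binding protein of the small subunit, and Aurkaip1 (0.39 ± 0.11) were higher. So was Gadd45gip1 (0.36 ± 0.11), of the large subunit, while Chchd1 (0.17 ± 0.07, adjusted p = 0.0525) and Ptcd3 (0.00 ± 0.08, 0.989) were not called. Of 20 assembly factors, 11 were higher and 0 lower (median 0.15), among them the helicase Dhx30 (0.35 ± 0.09) and Malsu1 (0.29 ± 0.08), which keeps the subunits apart. Of 11 translation factors only the elongation factor Tufm was higher (0.33 ± 0.08), 0 were lower, and the median was -0.01. Of 17 mitochondrial tRNA synthetases, Aars2 (0.21 ± 0.07) and Ears2 (0.17 ± 0.06) were higher and 0 lower (median 0.10). Of 11 genes that copy or express mitochondrial DNA, the polymerase Polrmt (0.24 ± 0.09) and the helicase Twnk (0.12 ± 0.04) were higher and 0 lower (median -0.06), though 2 were lower in AwTw.

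Related machines moved with the members. In the cytosolic ribosome 66 of 79 genes were higher and 0 lower (median 0.35), and among nuclear genes of oxidative phosphorylation 59 of 83 were higher and 1 lower (0.29). Over genotypes, 16% of all genes were higher and 13.4% lower. In AwTw, 32 and 12 of these genes were higher, beside 14 members, against 6.01% of all genes. The 14 member calls had an adjusted p of 0.0498 by limma. They were lost when any 1 of 32 of the 45 mice was left out. Without AM245 and PM265, 0 genes of the table were called higher over genotypes.

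Cell type markers were read in the same diet comparison, in which 16% of all genes were higher and 13.4% lower. Without AM245 and PM265, 0 genes were called higher in it. The part of cell types in the members' result was not tested. Of 10 microglial genes 6 were higher on TWD, such as Tyrobp (0.39 ± 0.09), and 1 lower, P2ry12 (-0.36 ± 0.14), and the mean of the 10 spanned 8.88 to 10.45 on STD and 9.12 to 10.35 on TWD. Of 7 oligodendrocyte genes 4 were higher and 0 lower (12.04 to 12.72 on STD and 12.04 to 12.80 on TWD). Of 7 astrocyte genes 2 were higher and 3 lower (11.96 to 12.48 on STD and 11.67 to 12.57 on TWD), and of 10 neuronal genes 2 were higher and 2 lower (12.75 to 13.27 on STD and 12.37 to 13.23 on TWD). Of 7 endothelial genes 1 was higher and 1 lower (7.89 to 8.60 on STD and 7.74 to 8.56 on TWD), while 0 of 4 hemoglobin genes (5.49 to 8.60 on STD and 5.87 to 8.73 on TWD) and 0 of 8 choroid plexus genes (5.99 to 10.52 on STD and 5.74 to 10.27 on TWD) were called.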

How the data were processed

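Hippocampal RNA of 45 mice was sequenced as single reads from a stranded poly(A) kit. The authors trimmed reads with Trimmomatic 0.38, discarded ribosomal and mitochondrial reads with Bowtie2 2.2.3, quantified transcripts with kallisto 0.44.0 against mm10, transformed them with DESeq2 1.22.2 and removed batch with limma 3.38.3. Whether counting used strand is not given in the sources used here. The deposited values are therefore log2-like and hold no counts, so the depth of each mouse could not be read from them (the study's methods state only a minimum) and the count model was not run.

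Groups came from the labels. Each gene was fitted with limma 3.58.1 (R 4.3.3), with a mean trend, in 16 comparisons: diet over genotypes with genotype and batch as terms, and the rest from a single fit of 8 groups with batch. P-values were two-sided and adjusted by Benjamini-Hochberg over 15897 genes, with a threshold of 0.05. The code was tested on simulated data. Lengths and GC content were matched for 15695 genes. Trend removal used natural splines with 4 degrees of freedom. A nuisance score, from the first principal component of the residuals, was an alternative covariate.

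Genes were named by role, or as the 8 lowest p among those higher (at most 4 lower) for diet over genotypes and in AwTw, the 3 lowest p elsewhere, and the 3 extremes of level and of correlation. Mrpl50, Mrps2, Mrps10, Mrpl4, Mrpl38 and the members lower in batch 1, and the examples from other lists, were named after their values were seen. The members and lists were chosen with earlier results of these data known. Leaving out AM245 and PM265 was an alternative chosen after seeing the data.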

Additional observations from a re-analysis of the deposited data

Results flagged for a closer look

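Outliers were sought in 72 combinations of a gene, or of the members' median, with a group of 4 to 6 mice. In 6 of them a mouse lay farther from its nearest neighbour than Dixon's critical value allows. Chance gives about 1 in 20 for a single check. The combinations share mice and genes that move together, so they are not independent checks. The median deviation of the 78 genes was -0.298 in PM275 of AwT+/STD, next to -0.164 in the nearest mouse. It was -0.161 in PM292 of A+T+/STD, next to -0.044. Mrpl15 stood at 9.081 in PM272 of AwTw/STD, next to 8.861. Mrpl23 stood at 9.922 in AM261 of AwT+/TWD, next to 9.15. Mrpl42 stood at 9.821 in AM260 of A+T+/TWD, next to 9.529. Mrps18c stood at 7.383 in AM308 of AwTw/STD, next to 7.951.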

How the results depend on the processing

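For diet over genotypes, the 47 calls became 0 in batch 0 alone, 0 with the nuisance score, 0 at a threshold of 0.01, 0 without AM245 and PM265, and 23 with the length and GC trend removed. Leaving out each mouse in turn gave 33 to 55. For diet in AwTw, the 14 calls became 0 in batch 0 alone, after quantile normalization, with no mean trend, with only the groups compared, with the nuisance score, with the length and GC trend removed, at a threshold of 0.01, and without AM245 and PM265. They became 32 in batch 1 alone, 24 among genes above the 25th percentile and 42 at a threshold of 0.1, and leaving out each mouse gave 0 to 48. The median in AwTw was -0.0372 in batch 0 and 0.0232 with the nuisance score. With that score, 1 member was called in A+T+ against AwTw on TWD (Mrpl12, -0.2745, adjusted p = 0.0395 by limma) and 2 in A+ against Aw (Mrpl4 and Mrpl38).

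Signs turned for values that had not passed the test, except Mrpl52 (-0.0241) and Mrps7 (-0.0925) for diet in AwTw in batch 0. That batch held 2 AwTw mice on each diet. For diet over genotypes in batch 0, Mrpl3 was 0.055, Mrps22 0.1236 and Mrps30 0.0531. Mrps22 was 0.004 after quantile normalization, 0.0618 with the nuisance score and 0.0972 with the trend removed, and Mrps30 0.0147 and 0.2084 with the latter pair. Mrpl3 was 0.0094 without A+Tw/STD replicate 2 and 0.0038 without AwT+/TWD replicate 5. With the trend removed, Mrps30 was 0.0177 in A+ against Aw and 0.0353 in A+T+ on STD. In A+Tw, batch 0 gave -0.3836 for Mrpl2 and -0.1629 for Mrps28 on STD, and 0.1153 for Mrpl10 and 0.206 for Mrpl12 in the interaction, while batch 1 gave 0.061 for Mrps5 on TWD. Batch 0 held 1 A+Tw/STD mouse and 2 AwTw/STD mice, so its values for A+Tw rest on few mice. Causes were not tested. Per length with the longest transcript, Mrpl20, Mrpl41 and Mrpl47 stood at 9.93, 10.09 and 5.87. No paired analysis was possible because replicate numbers were given in accession order. Without counts per mouse, precision is limited to the spread between mice.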
